A study of Mus musculus with 5 samples.

Results

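The distal convoluted tubule (DCT) of the healthy mouse kidney is described here from 595 cell or nucleus barcodes, of 11395 in 4 libraries of healthy kidney. Members were the barcodes that carry the label DCT in the authors' deposited annotation. They numbered 146 of 3531 barcodes in the library of whole cells, made with Drop-seq, and 131 of 3011, 133 of 2769 and 185 of 2084 in 3 libraries of single nuclei, made with sNucDrop-seq, DroNc-seq and 10x Chromium. The study set single-cell against single-nucleus RNA sequencing in the adult kidney, with a library of an obstructed, fibrotic kidney that is not used here. All 4 libraries came from mice labelled healthy, and the labels' dissociation protocol names the strain C57BL/6; the labels give neither sex nor age. Cells were freed by mincing and enzyme digestion and sorted on light scatter, and nuclei by detergent lysis and homogenization. Each preparation is 1 library, so no difference has a replicate check and no p-value is given; 95% intervals cover counting error only.

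The DCT is the short segment between the thick ascending limb of Henle's loop and the connecting tubule. Its cells take up sodium chloride from the urine through the thiazide-sensitive cotransporter encoded by Slc12a3, under a chain of WNK and SPAK kinases, and pass it to the blood through pumps and channels of the basolateral side. The segment also sets the last step of magnesium recovery, through the channels encoded by Trpm6 and Trpm7, and its later portion takes part in calcium transport together with the connecting tubule.

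The 3 genes used as DCT markers lie on separate chromosomes of the mouse genome (mm10): Slc12a3 at chr8:94329201-94366214 on the plus strand, Pvalb, which encodes the calcium buffer parvalbumin, at chr15:78191114-78206400 on the minus strand, and Trpm6 at chr19:18749983-18892511 on the plus strand. Their promoters are shown because these genes are the markers the label is checked against, as the 250 bases before the RefSeq start in build GRCm38.p6, read 5′ to 3′ on the gene's own strand. The Slc12a3 window is chr8:94328958-94329207 on the plus strand, the Pvalb window chr15:78206401-78206650 on the minus strand (the first of 2 Pvalb promoters in the table) and the Trpm6 window chr19:18749480-18749729 on the plus strand. Capitals mark a TATA box (TATAAA) and sites of the form GCCNNNGGC, which AP-2 factors bind.
Slc12a3: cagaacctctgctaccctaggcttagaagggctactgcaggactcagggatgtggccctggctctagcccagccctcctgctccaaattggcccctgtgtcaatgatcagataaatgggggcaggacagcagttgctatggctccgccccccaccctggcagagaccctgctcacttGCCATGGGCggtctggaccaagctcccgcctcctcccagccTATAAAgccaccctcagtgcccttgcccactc
Pvalb: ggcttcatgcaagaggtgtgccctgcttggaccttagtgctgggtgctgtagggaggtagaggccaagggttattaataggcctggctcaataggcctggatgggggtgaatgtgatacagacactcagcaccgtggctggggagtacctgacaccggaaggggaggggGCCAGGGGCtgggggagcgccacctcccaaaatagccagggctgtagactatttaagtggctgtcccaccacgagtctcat
Trpm6: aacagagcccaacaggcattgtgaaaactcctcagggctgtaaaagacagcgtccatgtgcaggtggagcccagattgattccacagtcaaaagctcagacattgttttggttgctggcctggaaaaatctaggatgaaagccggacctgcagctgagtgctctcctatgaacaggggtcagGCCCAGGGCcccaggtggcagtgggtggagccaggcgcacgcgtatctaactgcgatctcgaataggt
All 3 windows held GCCNNNGGC, at -73 to -65 in Slc12a3, -81 to -73 in Pvalb and -68 to -60 in Trpm6, counted back from the start, and Slc12a3 also held TATAAA at -32 to -27. Both strands were searched. Over 32851 promoters of the same length, 13.7% held GCCNNNGGC and 12.4% TATAAA. Of the 20 leading DCT genes described below, 16 had a promoter in the table; 6 of these 16 (Slc12a3, Pvalb, Trpm6, Wnk1, Abca13 and Cdk14) held GCCNNNGGC and 1 (Slc12a3) TATAAA. The estrogen-related receptor site TCAAGGTCA, in 0.387% of all promoters, was in 0 of the 16.

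A UMI is 1 counted RNA molecule, and levels are given below as UMI counts scaled to a common total (CPM). Where 4 values stand in a row they belong to Drop-seq cells and then to sNucDrop-seq, DroNc-seq and 10x nuclei. The DCT sums held 324421, 207325, 294082 and 268387 UMIs. Median UMIs per DCT barcode were 1936.5, 1227, 1680 and 1363, with a whole range of 393 to 9447. Outside the proximal tubule labels, DCT made up 28.7% of the Drop-seq barcodes and 11.0 to 13.4% of those of the 3 nucleus libraries. Digestion and sorting were used for the cells alone, and their part in these shares was not tested. The libraries also came from animals that differ in sex-linked RNA. Xist, transcribed from the inactive X, had 0 counts in the Drop-seq and sNucDrop-seq libraries and 1309 and 1321 CPM in DroNc-seq and 10x. Y-linked genes summed to 145, 446, 8.70 and 3.73 CPM. Genes carried by the mitochondrial genome took 26.9, 0.190, 0.0745 and 0.0268% of DCT UMIs, and Malat1, a long RNA kept in the nucleus, 1.29, 16.3, 19.5 and 10.7%. In no pair of libraries was a DCT barcode shared.

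The label was borne out by its markers in all 4 libraries. Slc12a3 stood at 4476, 17880.1, 18719 and 13544 CPM in DCT, against 108, 826, 701 and 717 CPM over all other labels. Every DCT value lay above every value of the other labels, by 18.9 to 41.5 fold within a library. Trpm6 stood at 209.6, 1360.2, 1190.1 and 1371 CPM in DCT and 12.8, 66.2, 65.2 and 90.3 CPM in the other labels, 15.2 to 20.5 fold higher in DCT. Pvalb stood at 774, 48.2, 54.4 and 950.1 CPM in DCT and 9.62, 4.52, 5.57 and 44.8 CPM in the other labels; it was high in DCT of Drop-seq and 10x, and in DCT of sNucDrop-seq and DroNc-seq it rested on 10 and 16 counts. DCT had the highest level of all 3 markers among the labels with at least 20 barcodes in each library. The next label for Slc12a3 and Trpm6 was the connecting tubule each time, at 1639, 5812, 3692 and 3924 CPM of Slc12a3. Because the labels were made by clustering these same barcodes, a DCT level above the rest is a description of the label and not a test.

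**Figure D1:**
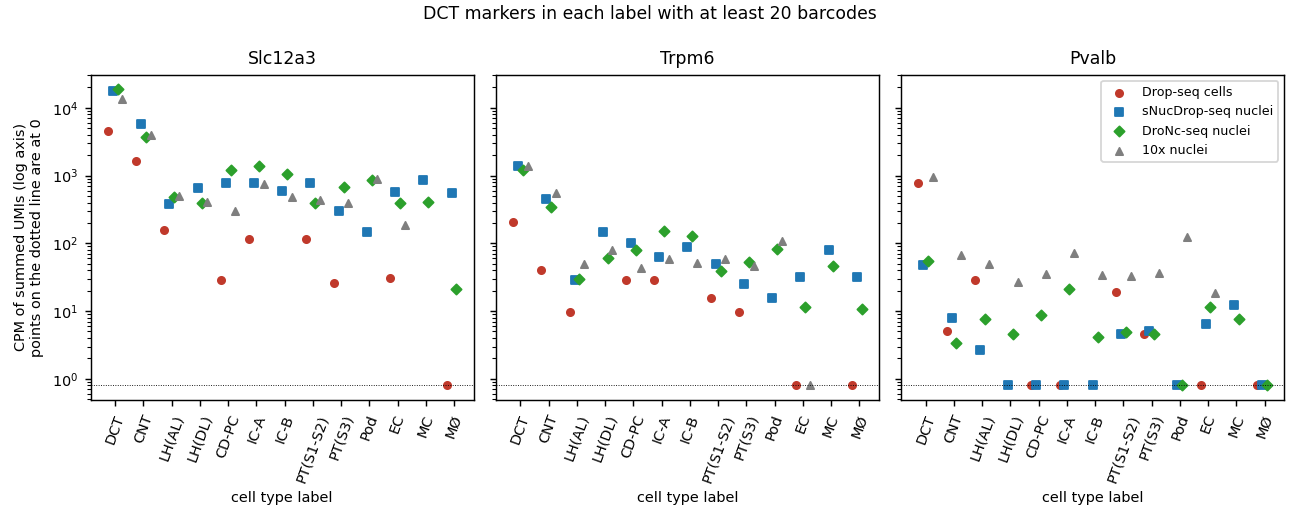
Level (CPM, log axis, 0 drawn on the dotted line) of Slc12a3, Trpm6 and Pvalb by cell label, DCT leftmost, with 1 point for each library. The DCT points of Slc12a3 lie between 4476 and 18719 CPM, and the connecting tubule points come next, between 1639 and 5812 CPM.

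Markers of other cell types had counts in the DCT sums to a differing extent. How much of this was RNA of other cells, and its part in the results below, was not tested. The 8 fixed proximal tubule markers summed to 6045, 5913, 2717 and 1036 CPM in DCT, which is 14.8, 39.6, 23.0 and 7.20% of their level in the proximal tubule's own barcodes. In Drop-seq most of it was the single gene Kap, at 5037 CPM in DCT against 31527 CPM in the other labels. Ascending limb markers reached 12.5, 7.04, 4.87 and 5.65% of their own label's level and connecting tubule markers 6.99, 36.6, 17.6 and 13.3%. The connecting tubule list includes Calb1, which was also higher in DCT than in the other labels, so its share does not measure RNA of other cells alone. Principal cell markers stayed at 0.0464 to 1.73%, intercalated cell markers at 0.589 to 1.33%, endothelial markers at 0.493 to 2.96% and macrophage markers at 0 to 1.503%. Podocyte markers reached 5.20, 3.55 and 6.56% in the nucleus libraries, nearly all of it Magi2, and in Drop-seq only 2 barcodes are labelled podocyte. Avpr2 and Aqp6, of the principal and intercalated marker lists, had 0 counts in all 4 DCT sums, which at 3 counts allows up to 9.25, 14.5, 10.2 and 11.2 CPM. Other members of these lists did have counts in DCT. Aqp2 had 0, 0, 2 and 14, Hsd11b2 1, 3, 5 and 5, Atp6v1g3 6, 4, 5 and 1 and Atp6v0d2 3, 7, 7 and 2. The macula densa, a patch of cells beside the DCT, left no more than 1 count: Nos1 had 1 in sNucDrop-seq, and Pappa2 and Avpr1a had none.

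Against all other labels together, 105 of 9256 measured genes (1.13%) were at least 2-fold higher in DCT in all 4 libraries, and 304 (3.28%) at least 2-fold lower. A gene was measured where the table lists it in that library and its 2 sums hold at least 20 counts. DCT was the highest of all labels in every library for 38 of the 105, in 3 libraries for 20, in 2 for 16, in 1 for 17 and in none for 14. Without the proximal tubule labels in the comparison 42 genes were higher, 37 of them among the 105, and 65 lower, 22 of them among the 304. With each other label weighted alike 92 were higher, 73 of them among the 105, and 163 lower, 77 of them among the 304. The 6 lowest by the fixed rule were Snhg11, Aadat, Keg1, Lpar3, Pdzk1 and Tnfaip8. Aadat, a mitochondrial aminotransferase, stood at 30.8, 77.2, 102 and 156 CPM in DCT and 169, 368, 1250.4 and 1643 CPM in the other labels, and its highest label was PT(S3), the last part of the proximal tubule, in all 4 libraries.

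Of the 11 measured genes of salt entry and its kinases, 6 were at least 2-fold higher in DCT in all 4 libraries and 0 lower. Over all measured genes the shares were 1.13% and 3.28%. The 6 were Slc12a3, which is itself a marker of the label, Wnk1, Wnk4, Klhl3, Stk39 and Ppp1r1a. The list's median log2 ratio was 3.22, 1.55, 2.03 and 1.06, beside 0.00, -0.06, -0.08 and -0.07 over all measured genes. Wnk1, a kinase whose kidney-specific form is known mainly from the distal nephron, stood at 2410.4, 4568, 4519 and 6502 CPM in DCT and 137, 617, 685 and 958 CPM in the other labels. Its log2 ratios were 4.14, 2.89, 2.72 and 2.76, the largest in cells. Klhl3, the adaptor that hands WNK kinases to a ubiquitin ligase, stood at 382, 1404, 1241 and 1341 CPM in DCT and 16.5, 134, 165 and 169 CPM in the other labels. The DCT values did not overlap those of the other labels for either gene, and DCT was the highest label for both in every library.

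Wnk4, the kinase upstream of SPAK, reached 225, 424, 343 and 599.9 CPM in DCT and 17.6, 112, 84.0 and 223 CPM in the other labels. Stk39, which encodes SPAK itself, reached 151, 405, 765 and 1587 CPM in DCT and 16.2, 139, 174 and 631 CPM in the other labels, with log2 ratios of 3.22, 1.55, 2.14 and 1.33. For both genes the ratio was largest in cells and smallest in 10x. Ppp1r1a, an inhibitor of protein phosphatase 1, stood at 1338, 478, 384 and 510.5 CPM in DCT and 76.5, 103, 73.1 and 244 CPM in the other labels, and in 10x its log2 ratio was 1.06 (95% counting interval 0.79 to 1.33). Cul3, the scaffold of the ligase that Klhl3 serves, was flat across labels, at 67.8, 48.2, 88.4 and 96.9 CPM in DCT and 65.1, 66.0, 87.1 and 79.1 CPM in the other labels. Sgk1, the aldosterone-induced kinase, had 0 counts in DCT of Drop-seq and 24.1, 17.0 and 41.0 CPM in DCT of the nucleus libraries, against 27.3, 41.4, 30.9 and 104 CPM in the other labels. Cab39, Cab39l and Nedd4l had log2 ratios of -0.75 to 0.81, 0.52 to 1.03 and -1.29 to -0.09 and were not 2-fold apart in all 4 libraries.

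On the basolateral side, 3 of 10 measured genes were higher and 0 lower, Kcnj10 among the 3. Over all measured genes 1.13% were higher and 3.28% lower. Kcnj10, the potassium channel subunit Kir4.1, stood at 166, 159, 133 and 123 CPM in DCT and 14.1, 23.1, 24.6 and 45.5 CPM in the other labels. The DCT values of Kcnj10 lay above those of the other labels in every library. Kcnj16, the partner subunit of Kcnj10, showed no such difference, at 601, 762, 871 and 950.1 CPM in DCT and 544, 736, 997 and 979.6 CPM in the other labels, with log2 ratios of -0.20 to 0.14. Bsnd, which encodes barttin, had a log2 ratio of 3.52 (95% counting interval 2.75 to 4.26) in Drop-seq and of -0.79 to 0.26 in the nucleus libraries, on at most 6 DCT counts in each. Atp1b1, Fxyd2 and Slc12a7 were not 2-fold apart in all 4 libraries.

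Among 10 measured magnesium genes, 3 were higher and 0 lower, beside 1.13% and 3.28% over all measured genes. The 3 were Trpm6, which is itself a marker of the label, Trpm7 and Cnnm2. Trpm7, which encodes a channel kinase that can pair with TRPM6, stood at 909, 2634, 3128 and 3443 CPM in DCT and 168, 640.1, 622 and 549 CPM in the other labels. Cnnm2, a basolateral protein mutated in inherited magnesium loss, stood at 108, 232, 265 and 641 CPM in DCT and 12.2, 53.4, 56.6 and 96.3 CPM in the other labels. DCT was the highest label for all 3 in every library. Egf, the growth factor that acts on TRPM6, was 0.88 to 3.20 higher in DCT on the log2 scale, below 2-fold in 10x. Its receptor gene Egfr was lower, with log2 ratios of -1.57, -0.70, -1.01 and -1.79, but not 2-fold in sNucDrop-seq. Pcbd1, a gene mutated in inherited magnesium loss, had log2 ratios of -0.74 to 0.36. Slc41a3, a transporter reported in DCT, had too few counts to be measured, with 2, 2, 2 and 5 counts in the 4 DCT sums.

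Of 11 measured calcium genes 2 were higher and 0 lower, Calb1 and Pvalb, of which Pvalb is itself a marker of the label. Over all measured genes 1.13% were higher and 3.28% lower. Calb1, the cytosolic calcium carrier calbindin-D28K, stood at 1939, 526, 476 and 663 CPM in DCT and 245, 164, 117 and 223 CPM in the other labels. The calcium entry channel gene Trpv5 had 1, 2, 1 and 3 counts in the DCT sums, below its level in the other labels. In the list of aldosterone response and sodium channel genes, 1 of 12 measured was higher, Kcnj1, and 2 were lower, Scnn1g and Hsd11b2. Kcnj1, the potassium channel ROMK, stood at 543, 232, 282 and 428 CPM in DCT and 46.0, 66.9, 69.8 and 214 CPM in the other labels; in 10x its log2 ratio was 1.00 (95% counting interval 0.70 to 1.30). Nr3c2, the mineralocorticoid receptor, was higher in DCT in every library but below 2-fold in the nuclei, with log2 ratios of 1.90, 0.81, 0.93 and 0.56.

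Transcription factors held 6 of 17 measured genes higher in DCT and 0 lower, beside 1.13% and 3.28% over all measured genes. Sall3, a zinc finger factor, stood at 33.9, 183, 187 and 175 CPM in DCT and 2.29, 12.9, 14.4 and 16.8 CPM in the other labels, the ratio alike in cells and nuclei. Esrrb, an orphan nuclear receptor, had log2 ratios of 3.04, 2.30, 2.19 and 1.02 and Mecom, a zinc finger factor of the distal nephron, of 1.76, 2.09, 1.91 and 1.34. The other members that passed were Emx1, Tfap2a and Gata3, named after their values were seen, with log2 ratios of 1.87 to 3.73, 1.36 to 2.75 and 1.37 to 3.80. Esrrg and Ppargc1a, both known as regulators of mitochondrial genes, were under 2-fold in at least 1 library, at 0.36 to 0.89 and 0.41 to 1.62. Outside that list, Lhx1, a LIM homeobox gene of kidney development, stood at 336, 834, 772 and 246 CPM in DCT and 33.0, 87.3, 79.0 and 23.9 CPM in the other labels, with nearly the same log2 ratio in all 4 libraries, 3.35, 3.26, 3.29 and 3.36. Lhx1os, the long noncoding RNA that starts beside it on the opposite strand (Lhx1 at chr11:84518284-84525535, minus strand, and Lhx1os at chr11:84525660-84535831, plus strand), stood at 333, 637, 479 and 101 CPM in DCT and 54.5, 84.6, 79.0 and 14.2 CPM in the other labels. The annotated genes do not overlap.

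The remaining leading genes were outside the transport lists. Ptgfr, the prostaglandin F receptor, stood at 367, 222, 204 and 231 CPM in DCT and 11.5, 17.4, 16.2 and 22.0 CPM in the other labels, the DCT level in cells above those in nuclei. Defb1, a beta-defensin, stood at 3314, 959.8, 558 and 789.9 CPM in DCT and 147, 99.5, 94.1 and 150.1 CPM in the other labels, and Sfrp1, a secreted inhibitor of Wnt signalling, at 1375, 304, 323 and 276 CPM in DCT and 64.9, 55.8, 76.7 and 47.4 CPM in the other labels. Both were highest in cells. Abca13, an ABC transporter, went the other way between preparations, at 564, 5122, 4869 and 3882 CPM in DCT and 24.9, 490.2, 418 and 650.3 CPM in the other labels. Cadps2, Cables1, Hmgcll1, Tox3, Tdrd3, Cdk14 and Cwh43 completed the 20, with lowest log2 ratios between 2.25 and 3.03. Hormone and growth factor receptors, chaperones, glycolysis, oxidative phosphorylation, ribosomal protein, immediate early and mitochondrial genome lists had 0 members higher and 0 lower in all 4 libraries, of 12, 8, 13, 82, 80, 6 and 6 measured. Of 7 measured claudin and junction genes 0 were higher and 1 lower, Cldn10. Over all measured genes 1.13% were higher and 3.28% lower.

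**Figure D2:**
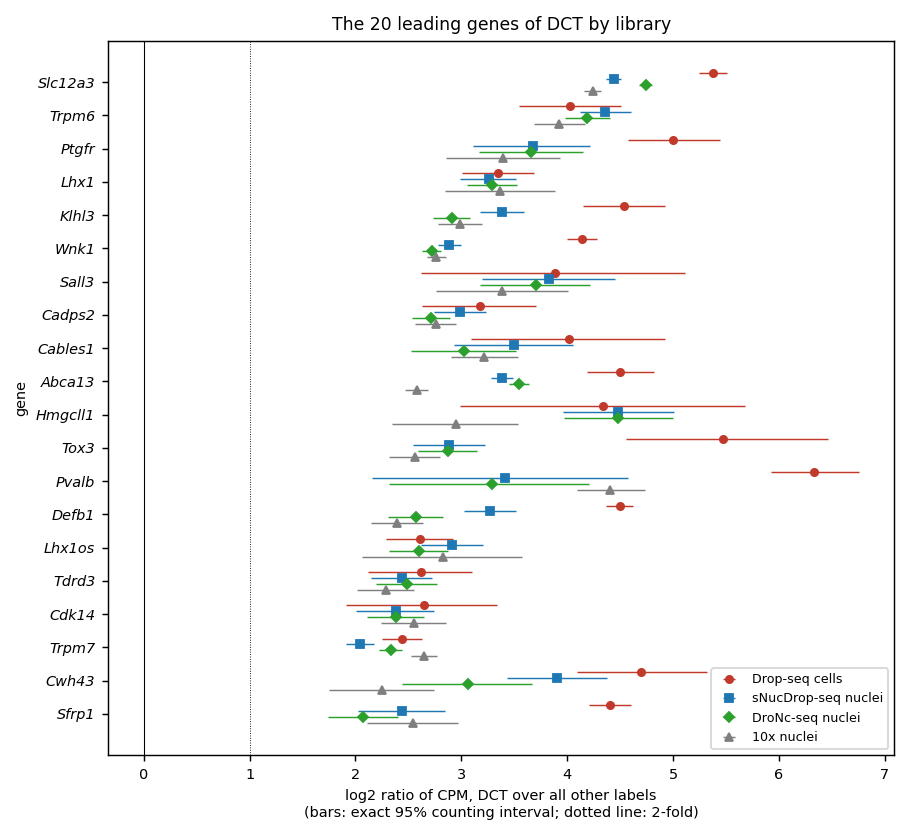
Log2 ratio of the DCT level to the level of all other labels for the 20 leading genes, with 1 point for each library, bars for the exact 95% counting interval and a dotted line at 2-fold. All points lie right of the 2-fold line, and Slc12a3 spans 4.24 to 5.37.

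The ascending limb lies upstream of the DCT. Of 2426 genes measured in all 4 libraries, 39 (1.61%) were at least 2-fold higher in DCT than in LH(AL) and 27 (1.11%) lower. Slc12a3 stood at 4476, 17880.1, 18719 and 13544 CPM in DCT and 159, 379, 485 and 501 CPM in LH(AL), and its counterpart Slc12a1, the furosemide-sensitive cotransporter, at 46.2, 777, 547 and 674 CPM in DCT and 6564, 15332, 20114 and 15399.9 CPM in LH(AL). The log2 ratios were 4.82, 5.56, 5.27 and 4.76 for Slc12a3 and -7.15, -4.30, -5.20 and -4.51 for Slc12a1. The 2 genes are markers of the 2 labels, so their opposite directions describe the labels and are not a test. Of 10 measured salt entry genes 3 were higher in DCT, Slc12a3, Wnk1 and Klhl3, while Wnk4, Stk39 and Ppp1r1a lay close to the ascending limb, with log2 ratios of 0.13 to 1.30, -0.27 to 0.58 and -0.46 to 0.16. Of 7 measured basolateral genes 0 were higher and 0 lower.

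All 3 magnesium channel and transport genes that led against the other labels also led against the ascending limb, of 6 measured. Over all measured genes 1.61% were higher and 1.11% lower, and Trpm6 is itself a marker of the label. Trpm6 was 4.45 to 5.54 higher in DCT on the log2 scale, Trpm7 2.36 to 2.92 and Cnnm2 2.45 to 3.21. Calcium genes split: Calb1, at 1939, 526, 476 and 663 CPM in DCT and 129.7, 69.0, 24.4 and 64.6 CPM in LH(AL), and Slc8a1, the sodium-calcium exchanger, at 240.4, 7023, 4475 and 4665 CPM in DCT and 4.80, 788, 684 and 1086 CPM in LH(AL), were higher. Casr, the calcium-sensing receptor, was lower, at 21.6, 101, 173 and 74.5 CPM in DCT and 81.7, 573, 740.3 and 342 CPM in LH(AL). Emx1 and Gata3 were the 2 transcription factors of 9 measured that passed, both higher. Both measured claudins, Cldn10 and Cldn16, which line the paracellular path of the ascending limb, were lower.

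Egf, Umod and Erbb4 were lower in DCT than in the ascending limb. Egf stood at 2185, 4211, 6236 and 3156 CPM in DCT and 5002, 9157, 10210.2 and 5193 CPM in LH(AL), a log2 ratio of -1.19, -1.12, -0.71 and -0.72. Umod, which encodes uromodulin, stood at 1486, 400.3, 575 and 219.8 CPM in DCT and 5050.0, 2518, 3846 and 663 CPM in LH(AL). Erbb4, a receptor of the EGF receptor family, stood at 64.7, 1076, 2349.7 and 1833 CPM in DCT and 384, 6167, 9438 and 7362 CPM in LH(AL). The DCT value was below the ascending limb value in every library for all 3 genes, and for Egf only Drop-seq and sNucDrop-seq passed 2-fold. The other leading lower genes were Tmem207, Ptger3, Car15, Plau, Pla1a and Slc9a3. Ptger3, a prostaglandin E receptor, stood at 18.5, 57.9, 51.0 and 101 CPM in DCT and 577, 589, 639 and 872 CPM in LH(AL), and Slc9a3, the apical sodium-hydrogen exchanger, at 12.3, 33.8, 61.2 and 127 CPM in DCT and 111, 276, 304 and 1215 CPM in LH(AL).

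Against the connecting tubule, downstream of the DCT, 19 of 1829 measured genes (1.04%) were at least 2-fold higher in DCT than in CNT in all 4 libraries and 26 (1.42%) lower. Egf led the higher genes, at 2185, 4211, 6236 and 3156 CPM in DCT and 122, 493, 534 and 322 CPM in CNT, followed in rank by Trpm7, at 909, 2634, 3128 and 3443 CPM in DCT and 214, 708, 685 and 576 CPM in CNT. Slc12a3 was 1.45 to 2.34 higher in DCT on the log2 scale and Trpm6 1.30 to 2.36, less than against either the ascending limb or the other labels. Erbb4 was 1.70 to 3.67 higher, so its level in DCT lay between those of the 2 neighbours in every library. Larp1b, an RNA-binding protein gene, stood at 213, 444, 520.3 and 868 CPM in DCT and 40.7, 51.7, 48.0 and 420.5 CPM in CNT; in 10x the log2 ratio was 1.05 (95% counting interval 0.68 to 1.43). Of 10 measured salt entry genes 2 were higher, Slc12a3 and Ppp1r1a, and 0 lower. Wnk1 was under 2-fold throughout, at 0.25, 0.47, 0.79 and 0.36.

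Members of the sodium channel, aldosterone response and calcium lists were among the 26 genes lower in DCT than in the connecting tubule. Of 8 measured aldosterone response genes 0 were higher and 3 lower, beside 1.04% and 1.42% over all measured genes. Scnn1g, a subunit of the epithelial sodium channel, had 1, 1, 1 and 3 counts in DCT and stood at 300.4, 346, 332 and 467 CPM in CNT. Scnn1b, another subunit, stood at 21.6, 14.5, 10.2 and 18.6 CPM in DCT and 204, 442, 531 and 524 CPM in CNT. Hsd11b2, the enzyme that keeps cortisol-like steroids off the mineralocorticoid receptor, stood at 3.08, 14.5, 17.0 and 18.6 CPM in DCT and 1181, 454, 438 and 129.8 CPM in CNT, the DCT values resting on 1, 3, 5 and 5 counts. Scnn1a, the remaining subunit, differed less, with log2 ratios of -0.02, -1.06, -0.49 and -0.96.

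Of 8 measured calcium genes 0 were higher and 3 lower, Calb1, Slc8a1 and S100g. Over all measured genes the shares were 1.04% and 1.42%. Calb1 stood at 1939, 526, 476 and 663 CPM in DCT and 5636, 1345, 1120.0 and 1926 CPM in CNT and Slc8a1 at 240.4, 7023, 4475 and 4665 CPM in DCT and 1466, 18615, 26339 and 37888 CPM in CNT. S100g, the small calcium carrier calbindin-D9K, stood at 798, 212, 30.6 and 33.5 CPM in DCT and 28047, 525, 271 and 166 CPM in CNT. The S100g gap was widest in cells, with a log2 ratio of -5.13 (95% counting interval -5.32 to -4.95), and narrowest in sNucDrop-seq, with -1.31 (95% counting interval -1.83 to -0.80). For Calb1 and Slc8a1 the summed DCT level lay between its neighbours, above the ascending limb and below the connecting tubule, in all 4 libraries. In DCT 10 barcodes held 40.5, 39.4, 65.7 and 36.5% of the Calb1 counts and 65.4, 39.7, 70.7 and 49.0% of the Slc8a1 counts. Whether most DCT barcodes had a level between the neighbours was not tested. Klk1, a kallikrein, stood at 1310.0, 82.0, 37.4 and 63.3 CPM in DCT and 25914, 469, 387 and 296 CPM in CNT, and Slc2a9, a urate transporter, at 3.08, 57.9, 54.4 and 29.8 CPM in DCT and 269.8, 680.3, 654 and 809.8 CPM in CNT. Aqp2, Iqgap2 and Arl15 were the other leading lower genes. Aqp2, the water channel of the collecting duct, had 0, 0, 2 and 14 counts in DCT and stood at 555, 159, 116 and 555 CPM in CNT.

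**Figure D3:**
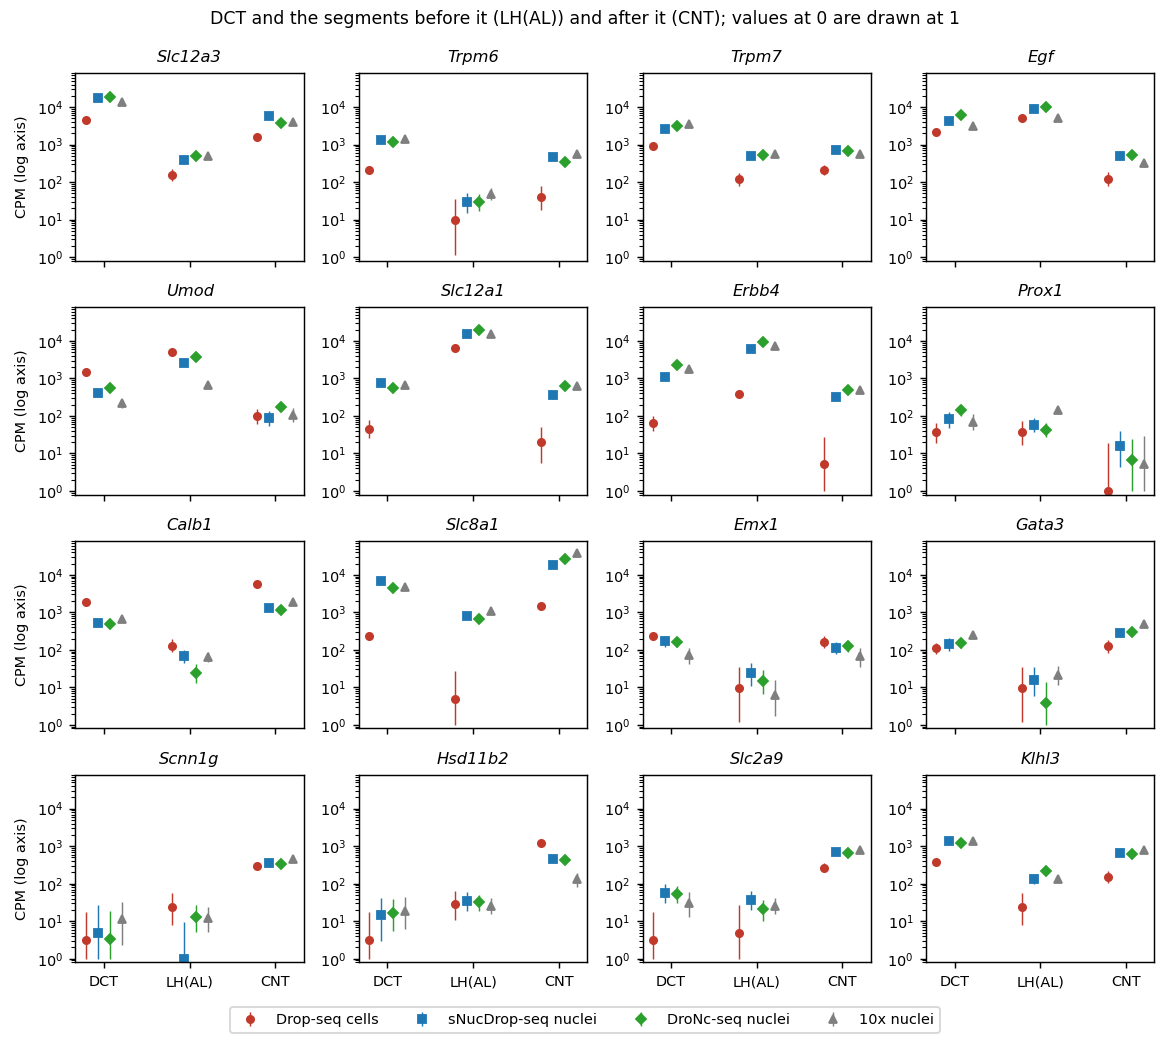
Level (CPM, log axis, 0 drawn at 1) of 16 genes in DCT, the ascending limb LH(AL) and the connecting tubule CNT, with 1 point for each library and bars for the exact 95% counting interval. The choice of Emx1, Gata3 and Prox1 was made with their values in view. For Slc12a3 the DCT points, between 4476 and 18719 CPM, lie above those of both neighbours of the same library, while Egf, Umod and Slc12a1 are highest in LH(AL) and Calb1, Slc8a1 and Scnn1g in CNT.

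Within DCT, Slc12a3 was found in most barcodes of every library, and the other genes looked at were found in fewer. Each barcode was thinned to 500 UMIs for this, which left out 4 DCT barcodes, all of 10x. A Slc12a3 UMI was then found in 82.9% (95% interval 75.8 to 88.6), 100%, 97.7% and 99.4% of DCT barcodes, and in 2.28, 13.5, 15.0 and 10.5% of proximal tubule barcodes, which should lack the gene. Without thinning the DCT share was 100% in all 4 libraries, at median depths of 1936.5, 1227, 1680 and 1363 UMIs in DCT and 1628.5, 1179, 1544 and 1491 UMIs in proximal tubule. The connecting tubule stood between, with 33.0, 36.6, 28.2 and 40.6%, and the ascending limb had 4.69, 9.16, 6.53 and 7.72%, at or below the proximal tubule in the nuclei. Slc12a3 gave 5 or more UMIs in 6.85, 86.3, 84.2 and 75.7% of thinned DCT barcodes, and in 1.03, 25.5, 11.97 and 16.7% of connecting tubule barcodes, the first of these on 1 barcode.

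Trpm6 was found in 5.48, 50.4, 33.8 and 39.2% of thinned DCT barcodes and in 0.563, 1.54, 2.12 and 1.85% of proximal tubule barcodes. Pvalb was found in 30.8, 2.29, 4.51 and 35.9% of DCT barcodes and 0.629, 0.275, 0.312 and 1.70% of proximal tubule barcodes, so most DCT barcodes showed none at this depth. Unthinned, the Drop-seq and 10x DCT shares were 67.8 and 62.2%. Egf was found in 63.7, 63.4, 76.7 and 59.7% of DCT barcodes, below the ascending limb with 80.5, 84.4, 89.0 and 72.6% and above the connecting tubule with 4.12, 16.8, 10.3 and 12.3%. Calb1 was found in 47.3, 20.6, 15.0 and 22.7% of DCT barcodes and 80.4, 39.8, 30.8 and 45.7% of connecting tubule barcodes. Slc8a1 was found in 9.59, 71.0, 42.9 and 47.5% of DCT barcodes, but also in 0.463, 26.1, 24.5 and 19.9% of proximal tubule barcodes, and in 36.1, 88.2, 94.0 and 97.1% of connecting tubule barcodes.

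**Figure D4:**
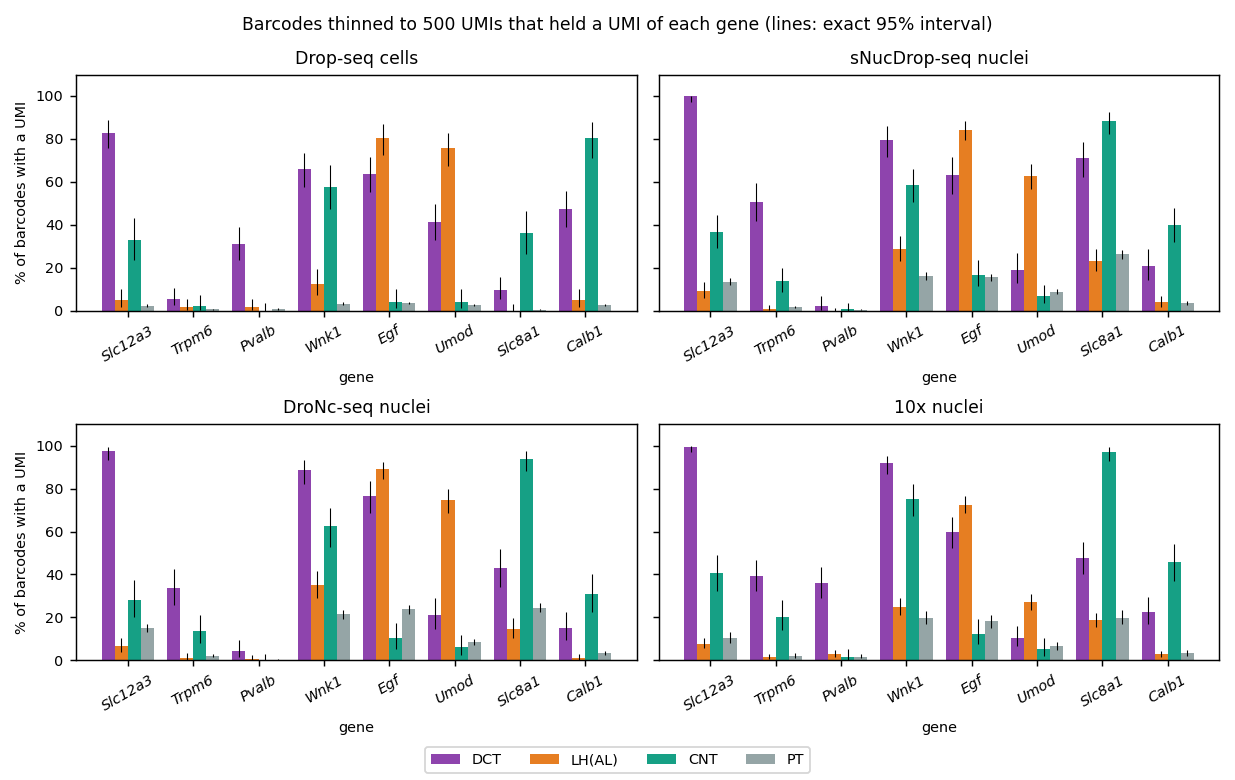
Share of barcodes (%) with at least 1 UMI of each of 8 genes after thinning to 500 UMIs, for DCT, the ascending limb LH(AL), the connecting tubule CNT and the proximal tubule PT, in 1 panel per library, with lines for the exact 95% interval. Slc12a3 was found in 82.9 to 100% of DCT barcodes, and Pvalb in 2.29 to 35.9%.

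The 10 DCT barcodes with most counts of a gene held 21.4, 17.2, 17.6 and 10.9% of all Slc12a3 counts, and 20.8, 21.9, 22.3 and 15.7% of all Wnk1 counts. For Egf the share was 23.0, 34.7, 29.1 and 24.8%, and for Pvalb 28.3% in Drop-seq and 20.8% in 10x. For Slc8a1 it was 65.4, 39.7, 70.7 and 49.0%, and for Calb1 40.5, 39.4, 65.7 and 36.5%. In DroNc-seq the highest DCT barcode held 302 Slc8a1 counts and the median barcode 1. Umod (42.1, 60.2, 49.1 and 42.4%) and Slc12a1 (100, 80.1, 78.3 and 54.7%) had such shares too, on 15 to 181 Slc12a1 counts in all. In each library these shares of Slc8a1, Calb1, Umod and Slc12a1 were larger than those of Slc12a3, Wnk1 and Egf. The totals behind them were unlike. Slc8a1 had 78, 1456, 1316 and 1252 counts, Calb1 629, 109, 140 and 178 and Umod 482, 83, 169 and 59, while Slc12a3, Wnk1 and Egf had 709 to 5505. Such a share is larger where counts are few, and how far this sets the difference was not tested. No doublet caller was run, and the 5 sNucDrop-seq and 10 DroNc-seq DCT barcodes whose UMIs were over 3 times the median of their label were kept.

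Joint detection of 2 genes could be read in Drop-seq, and in 10x for pairs with Pvalb, since elsewhere 1 gene of the pair was in nearly all or nearly none of the barcodes. In Drop-seq, Slc12a3 and Calb1 were found together in 39.7% of thinned DCT barcodes, against 39.2% for the product of their shares, Slc12a3 and Egf in 52.1%, against 52.8%, and Pvalb and Calb1 in 14.4%, against 14.6%. Pvalb and Slc8a1 in 10x were found together in 16.6%, against 17.1%, and Pvalb and Calb1 in 10x in 10.5%, against 8.13%. DCT barcodes with a Pvalb UMI were compared with those without, 45 against 101 in Drop-seq and 65 against 116 in 10x. The genes compared were late genes of the calcium and sodium channel lists, together with the connecting tubule marker Klk1. These genes summed to a log2 ratio of -0.44 (95% counting interval -0.85 to -0.04) in Drop-seq and 0.01 (-0.25 to 0.27) in 10x. The Drop-seq value was led by S100g, at -2.16 (-3.84 to -0.84) on 5 and 50 counts, and by Klk1, at -0.94 (-1.83 to -0.14), while Calb1 stood at 0.36 (-0.21 to 0.92) and Slc12a3 at -0.11 (-0.49 to 0.26). The split depends on the thinning depth: unthinned, where deeper barcodes are more often counted as having Pvalb, the late genes gave -1.06 in Drop-seq and -0.54 in 10x. The cells of 1 library are not replicates, so these intervals cover counting error only.

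DCT cells were also set against DCT nuclei. Here the 1 cell library enters all 3 ratios, so the counts are not comparable with those between labels. Of 7543 measured genes 1177 (15.6%) were 2-fold or more higher in DCT cells than in each of the 3 nucleus libraries, and 2419 (32.1%) 2-fold or more lower. The log2 ratios of all measured genes had medians of -0.78, -0.79 and -0.69 against sNucDrop-seq, DroNc-seq and 10x. With TMM scaling the counts became 1585 higher and 1623 lower (49.4% higher, where it was 32.7%), with medians of -0.27 to -0.16, and with median-of-ratios scaling 1727 higher and 1418 lower (54.9%). Without mitochondrial and ribosomal protein genes in the totals they were 1532 and 1717 (47.2%), and without Malat1 1014 and 2730 (27.1%). Ratios below are per total UMIs. List medians are of the ratio to the nearest nucleus library, set at 0 for a gene whose cell level lies within the nucleus levels, and on that measure the median over all measured genes was 0.00. Cells and nuclei differ in animal and preparation at once, and in part in platform, and these cannot be told apart.

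Most measured genes of oxidative phosphorylation and of the ribosome were on the cell side. Over all measured genes 15.6% were higher in DCT cells and 32.1% lower. All 7 measured genes of the mitochondrial genome were higher in DCT cells than in each nucleus library, with a median log2 ratio to the nearest nucleus library of 8.35. Of 80 measured oxidative phosphorylation genes encoded in the nucleus 71 were higher and 0 lower (median 3.20), of 79 ribosomal protein genes 75 and 0 (median 2.46), of 8 chaperones 6 and 0 (median 1.76) and of 11 glycolysis genes 4 and 0 (median 0.45). Hsp90ab1, a cytosolic chaperone, stood at 1085 CPM in DCT cells and 256, 139 and 96.9 CPM in DCT nuclei. Ldhb, the lactate dehydrogenase subunit of oxidative tissue, stood at 2262 CPM in DCT cells and 439, 371 and 320.4 CPM in DCT nuclei. Among transport genes and leading DCT genes Fxyd2, a regulator of the sodium pump, was 3.66 (3.39 to 4.68) higher against the nearest nucleus library. Atp1b1, the pump's beta subunit, was 2.31 (2.13 to 4.46) higher and Sfrp1 2.09 (1.77 to 2.69). The ranges in brackets run from the lowest to the highest 95% counting bound over the ratios to all 3 nucleus libraries.

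Of 14 measured transcription factors 0 were higher in DCT cells and 9 lower (median -2.16). Of 12 hormone and growth factor receptors 0 were higher and 8 lower (median -1.55). Over all measured genes 15.6% were higher and 32.1% lower. Esrrg stood at 157 CPM in DCT cells and 2826, 4604 and 7589.8 CPM in DCT nuclei, and Erbb4 at 64.7 CPM in DCT cells and 1076, 2349.7 and 1833 CPM in DCT nuclei. Mecom, Thrb, Insr and Igf1r were lower too, at -3.86, -3.13, -3.21 and -3.54 to the nearest nucleus library.

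Transport lists had members on both sides, beside 15.6% higher and 32.1% lower over all measured genes. Of 11 measured salt entry genes 1 was higher in DCT cells, Ppp1r1a, and 4 were lower, Slc12a3, Klhl3, Stk39 and Nedd4l (median -0.91). Slc12a3 stood at 4476 CPM in DCT cells and 17880.1, 18719 and 13544 CPM in DCT nuclei, -1.60 to the nearest library. Over the ratios to all 3 nucleus libraries its 95% counting bounds ran from -2.15 to -1.51. Magnesium genes gave 2 higher, Fxyd2 and Pcbd1, and 5 lower, Trpm6, Trpm7, Cnnm2 and Egfr among them, of 8 (median -1.32). Basolateral genes gave 3 higher and 2 lower of 10 (median 0.24), and calcium genes 2 higher, Calb1 and S100g, and 3 lower, Slc8a1, Casr and Vdr, of 10 (median -0.31). Calb1 and Slc8a1 went opposite ways: Calb1 was at 1939 CPM in DCT cells and 526, 476 and 663 CPM in DCT nuclei, and Slc8a1 at 240.4 CPM in DCT cells and 7023, 4475 and 4665 CPM in DCT nuclei. Pvalb lay within the nucleus libraries, which themselves differed, at 774 CPM in DCT cells and 48.2, 54.4 and 950.1 CPM in DCT nuclei. Under median-of-ratios scaling 1 salt entry gene, Nedd4l, and 3 magnesium genes were lower, and under TMM scaling 3 magnesium genes. The lower calls of Slc12a3, Klhl3 and Stk39 in DCT cells thus did not hold under median-of-ratios scaling.

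**Figure D5:**
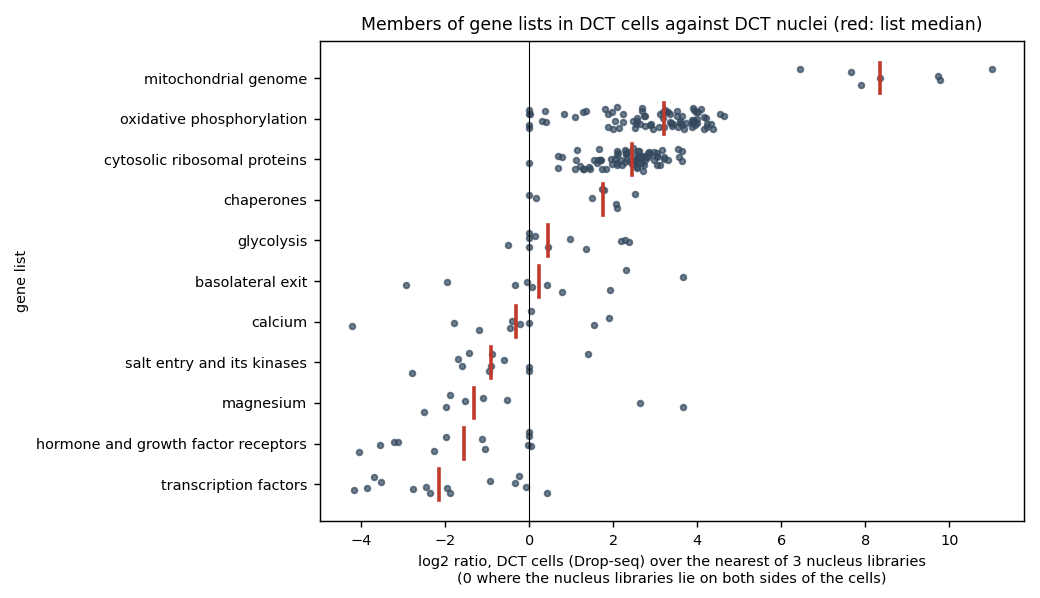
Log2 ratio of the level in DCT cells to the nearest of the 3 levels in DCT nuclei, with 1 point for each measured member of 11 gene lists and a red line at the list's median; members whose cell level lies within the nucleus levels stand at 0. Mitochondrial genome genes lie farthest right, with a median of 8.35, and transcription factors farthest left, with a median of -2.16.

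Several of the genes with the widest gap had it in the other labels too. Myo3a, Trhde, Racgap1, Col19a1 and Nrg3 were among the 8 highest in DCT cells, and each was within 2-fold of that level in the other labels of that library. Myo3a stood at 16226 CPM in DCT cells and 91.6, 13.6 and 22.4 CPM in DCT nuclei, and at 12397 CPM in the other labels of Drop-seq. Trhde stood at 2993 CPM in DCT cells and 2597 CPM in the other labels of Drop-seq. Ubb, a ubiquitin gene, and Fth1, the ferritin heavy chain, were likewise within 2-fold of the other labels. Pgam2, a phosphoglycerate mutase, was the exception: it stood at 527 CPM in DCT cells and 4.82, 10.2 and 11.2 CPM in DCT nuclei, and in Drop-seq at 38.4 CPM in LH(AL), 560.0 CPM in CNT and 29.5 CPM over all other labels. Its counts in DCT nuclei were 1, 3 and 3.

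Among the 8 lowest in DCT cells, Magi2, Pkhd1, Phlpp1, Atrnl1 and Klf12 were also within 2-fold of the other labels in each nucleus library. Acss3, an acyl-CoA synthetase gene, was not: it stood at 9.25 CPM in DCT cells, on 3 counts, and 347, 350.2 and 402 CPM in DCT nuclei, against 45.2, 76.1 and 67.2 CPM in the other labels of the nucleus libraries. DCT was its highest label in all 3 nucleus libraries, followed by the connecting tubule. Phlpp1 had 0 counts in DCT cells and 154, 204 and 164 CPM in DCT nuclei, so with the floor of 3 counts in place of 0 its log2 ratio was at most -4.06.

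Genes for oxidative phosphorylation took the largest share in DCT among the tubule labels compared in cells. They made up 6.35% of UMIs in DCT cells, 5.15% in LH(AL), 4.24% in CNT, 3.92% in PT(S1-S2) and 4.02% in PT(S3), and the counting intervals of DCT and LH(AL) did not overlap. In 10x nuclei DCT also came first, with a counting interval that overlapped that of LH(AL), and in the other 2 nucleus libraries it did not: the shares were 0.673, 0.438 and 0.564% in DCT, 0.766, 0.524 and 0.548% in LH(AL) and 0.612, 0.494 and 0.514% in CNT. Ribosomal protein genes, at 2.20% in DCT cells, 2.44% in LH(AL) and 1.92% in CNT, did not stand out.

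Immediate early genes, which many cells switch on within minutes of handling, summed to less in DCT cells than in both neighbours of Drop-seq. Together the 20 genes stood at 570 CPM (95% counting interval 491 to 659) in DCT cells, against 674 CPM in the other labels of Drop-seq, 1052 CPM in LH(AL), 1069 CPM in CNT and 436 CPM in PT(S1-S2). In the nuclei the direction varied: the log2 ratio of DCT over LH(AL) was 0.61, 0.58 and -0.65 in sNucDrop-seq, DroNc-seq and 10x, and that of DCT over CNT 0.37, 1.34 and -0.21. Of the DCT counts 117 of 185 were Ier3, at 361, 183, 201 and 59.6 CPM in DCT and 24.6, 30.5, 25.3 and 30.6 CPM in the other labels over the 4 libraries. Without Ier3, a choice made after its values were seen, the rest stood at 209.6 CPM in DCT cells and 649.5 CPM in the other labels, a log2 ratio of -1.63 (-1.999 to -1.29), with 927 CPM in LH(AL) and 759 CPM in CNT. Jun, also chosen after its values were seen, had 4 counts in DCT cells, or 12.3 CPM, against 232 CPM in the other labels, a log2 ratio of -4.23 (-6.11 to -2.87). Of the 4 list members measured between DCT cells and DCT nuclei, 1 was higher in the cells and 0 lower. Over all measured genes the shares were 15.6% and 32.1%.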

How the data were processed

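Counts were taken from 1 table of the 4 healthy libraries (11395 barcodes, 19713 genes) deposited by the authors, which the deposited readme describes as raw UMI counts made with the zUMIs pipeline. STAR 2.5.3a and build mm10 are named per the submitters' processing notes. Not given in the sources used here are the annotation, whether introns or strand entered the counts, the filters and how barcodes were clustered. Every value was a whole number, and 0 value columns were left without a sample. Cell labels were those of the authors' deposited annotation. All barcodes were kept, and no caller of doublets was applied.

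For each label and library the counts were added over barcodes and scaled to CPM. Shares carry exact Clopper-Pearson, sums exact Poisson and log2 ratios exact conditional binomial 95% intervals, for counting error only. Between labels a gene was measured with at least 20 counts in the 2 sums and called at 2-fold in all 4 libraries. Between DCT cells and DCT nuclei a gene was measured when listed in all 4 libraries with at least 20 counts in the 4 DCT sums together. It was called there at 2-fold against each of 3 nucleus libraries. A sum of 0 was set to 3 counts in ratios. In DroNc-seq no gene was listed in fewer than 6 barcodes and in 10x in fewer than 4, so 0 over either library means only that the gene is listed at 0. Genes named were those with interval bounds farthest from 0 (20 higher and 6 lower than the other labels, 8 each way in the other comparisons), all members of lists of up to 12 genes, and in longer lists the 4 highest and those at least 4-fold apart. The members, markers and lists were chosen with earlier results of these data known. A few members of the fixed lists are counted but not reported by name here.

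Other settings tried were scaling by TMM or by median of ratios, totals without Malat1 or without mitochondrial and ribosomal protein genes, barcodes with at least 1000 UMIs or without those over 3 times the median, other count minimums, means over barcodes, and other reference labels. Counts were simulated as Poisson sums from a single profile per comparison, with no variation between barcodes and no RNA of other cells. The rates below hold for that setting only, and real counts were more uneven. Changed genes were drawn from those above a minimum of expected counts, so the rates do not cover genes with few counts. Between DCT and the other labels 10784 genes were measured. On these simulated counts the 2-fold call found 91.6% of 95 genes with a 4-fold change and 5.21% of 96 with a 2-fold change. Of unchanged genes 0.00944% were called. Between DCT cells and DCT nuclei 7560 genes were measured. There the call found 92.9% of 99 genes with a 4-fold change and 22.4% of 98 with a 2-fold change, and 1.53% of unchanged genes were called. Python 3.11.15, numpy 2.4.6, scipy 1.17.1, pandas 2.3.3, matplotlib 3.10.9, R 4.3.3 and edgeR 4.0.16 (for TMM factors) were used. Gene positions are from GENCODE M21 on mm10, and promoters from RefSeq.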

Additional observations from a re-analysis of the deposited data

Results flagged for a closer look

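Both results below had opposite directions in cells and in all 3 nucleus libraries. Genes of the mitochondrial genome summed to a log2 ratio of DCT over the other labels of 0.16 in Drop-seq cells, against -0.38, -0.83 and -0.59 in sNucDrop-seq, DroNc-seq and 10x nuclei. In cells they made up 26.9% of DCT UMIs, and in nuclei between 0.0268 and 0.190%. Klk1, a kallikrein, had a log2 ratio of 0.43 in cells and of -1.02, -1.09 and -0.84 in the nuclei; 10 DCT cells held 48.2% of its 425 DCT counts in Drop-seq, and the DCT nuclei held 17, 11 and 17 counts. With 1 library of cells, neither difference was tested.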

How the results depend on the processing

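The alternative runs followed single genes only where they were named and called, by the ratio nearest 0 among the libraries. That ratio changed sign in no alternative run. It was set to 0 where libraries differed in direction, so a change of sign in 1 library could not be seen. The late-gene ratio in 10x, 0.01 with an interval that spans 0, was below 0 at the other thinning depths and unthinned, and with median of ratios more genes were higher than lower in DCT cells against DCT nuclei (1727 and 1418), where 1177 were higher and 2419 lower. No paired analysis was possible because each preparation is 1 library, and for the same reason no replicate could be left out. Of these recomputed ratios of single named genes 96 came under 2-fold, any that were set to 0 included, and 1837 did not. Slc12a3 in DCT over the other labels had log2 ratios of 2.98, 3.67, 4.17 and 3.83 without the proximal tubule labels, and Trpm6 3.29, 3.48, 3.59 and 3.51. For Slc12a3 the further values outside its counting interval were 5.13 in Drop-seq and 4.80 in DroNc-seq with TMM, 5.15 and 4.83 with median of ratios, 4.53 in sNucDrop-seq and 4.82 in DroNc-seq without Malat1, 4.29 in sNucDrop-seq and 4.08 in 10x from barcodes with at least 1000 UMIs, 4.67 in sNucDrop-seq and 5.01 in DroNc-seq without barcodes over 3 times the median, and 4.69, 4.99 and 4.47 in the nuclei as means over barcodes. DCT shares outside the proximal tubule were 28.7, 11.0, 11.4 and 13.4%. Genes higher than the other labels numbered 46 with at least 100 counts and 42 without the proximal tubule, where 65 were lower; with each other label weighted alike 163 were lower. Against the ascending limb 59 were higher and 84 lower with at least 1 count, and 9 and 6 with at least 100; against the connecting tubule 45 and 62, and 4 and 3. DCT cells against DCT nuclei gave 385 higher and 983 lower genes with at least 100 counts. Of the lists there, immediate early genes had 2 higher with TMM, with median of ratios and without mitochondrial and ribosomal protein genes, and 0 with at least 100 counts; magnesium genes had 3 lower with TMM and with median of ratios; salt entry genes had 1 lower with median of ratios and 7 without Malat1; with at least 100 counts glycolysis had 2 higher and receptors 4 lower. Late genes in DCT barcodes with Pvalb against those without gave -1.06 in Drop-seq unthinned, and in 10x -0.25 at 300 UMIs, -0.79 at 1000 and -0.54 unthinned. Without Ier3, an alternative chosen after seeing the data, the immediate early genes gave -1.63, where it was -0.24. Except for the higher minimum count, which leaves fewer genes measured, the cause of these shifts was not tested. Few counts lie behind Pvalb in sNucDrop-seq and DroNc-seq, Scnn1g and Trpv5 in DCT, which limits their precision.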
